A study of Arabidopsis thaliana with 12 samples.

Results

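The genes described are 9 of the 26245 gene models counted: *DIN1* (also *SEN1*), *ASN1* (also *DIN6*), *DIN10*, *DRM1*, *DRM2*, *BXL1*, *AKINBETA1*, *KMD4* and *GPT2*. They were chosen by locus as markers of darkness and sugar starvation, with their responses to dexamethasone (DEX) already known, so that their values in the DEX comparisons of the *RVE8:GR* line are a description. The levels of 8 of the 9 were highest in *RVE8:GR* + DEX seedlings. The exception was *GPT2*, which was highest in *RVE8:GR* + mock seedlings.

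RNA was sequenced from whole Arabidopsis seedlings of 2 lines given 2 treatments, with 3 libraries in each of 4 groups. In *rve8-1 RVE8::RVE8:GR* (*RVE8:GR*), the clock transcription factor RVE8 is fused to the glucocorticoid receptor domain and driven by the native *RVE8* promoter, and DEX lets the fusion protein enter the nucleus. *RVE8:GR* + DEX seedlings were compared with *RVE8:GR* + mock seedlings, which carry the same fusion transgene. Likewise, *rve8-1* (*rve8*) + DEX seedlings were compared with *rve8* + mock seedlings, which lack the fusion transgene. The fusion construct was put into *rve8-1* plants with a *CCR2::LUC+* luciferase reporter. Whether the sequenced *rve8* seedlings carried this reporter is not stated for the RNA-seq. All 4 groups carry the *rve8-1* mutation, were 7 days old, grew in 12 hr light and 12 hr dark on nylon mesh on agar medium with 3% sucrose, and were moved at ZT4 (4 hr after lights on) on their mesh into liquid medium with DEX or solvent for 4 hr. The *RVE8:GR* line is described as 1 transgenic line, each library is a pool of about 30 seedlings, and the labels and the methods differ on the unit of the DEX dose (30 mM and 30 µM).

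Plant cells sense their supply of sugar in part through the kinase SnRK1, which is active when energy is low and is held back by sugar phosphates. Darkness, the end of the night and sugar depletion induce a common set of genes for the breakdown of amino acids, cell wall sugars and storage compounds, and sugar represses most of them. The DIN genes were named for being dark inducible, and the *DRM* genes for dormant buds. *GPT2* differs from the rest in that it is known as a sugar-induced gene in Arabidopsis leaves.

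Short stretches of the promoters are shown because elements linked to sugar repression and to the clock both occur in them. The 500 bases upstream of each counted gene model (TAIR10.1) were searched on both strands for TTATCC, known as the sugar-repressive element, and AAATATCT, the short evening element bound by clock factors of the RVE8 type. CACGTG, the G-box, and ACTCAT, a site bound by bZIP factors of group S1, were searched in the same way. TTATCC was found upstream of 5 of the 9 genes (*DIN1*, *ASN1*, *DIN10*, *DRM2* and *AKINBETA1*), while 22.7% of 24857 promoters of the same length held it. *DIN1* and *AKINBETA1* had 3 matches each. Those closest to the start are shown for *DIN1*, *ASN1* and *DRM2*, in the direction of the gene, with the matched letters in capitals (GGATAA is TTATCC read on the other strand).

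*DIN1*, chr4:16944772-16944799, forward strand: ttacggtcttcTTATCCgtccgagtcag

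*DIN1*, chr4:16944793-16944820, forward strand: gagtcagcaagTTATCCtcttcaacacg

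*ASN1*, chr3:17441495-17441522, reverse strand: ctgactcagccGGATAAaccctaaaccg

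*DRM2*, chr2:14310719-14310746, reverse strand: ttaaagtaggcTTATCCacatcctaatt

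AAATATCT was found upstream of 3 of the 9 genes, against 8.91% of all promoters. The 3 matches are shown because they include *GPT2*, whose level was lower with DEX in the *RVE8:GR* line, while that of the other 8 genes was higher.

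*DIN10*, chr5:6833180-6833209, forward strand: cttaaaagacaAAATATCTttaaatatcct

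*KMD4*, chr3:22142764-22142793, forward strand: ttgttttcggaAAATATCTataacaaaata

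*GPT2*, chr1:22824322-22824351, forward strand: gtatattataaAAATATCTgaatagtcgaa

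The matches ended 461 bases upstream of the start of the counted model in *DIN10*, 118 bases in *KMD4* and 74 bases in *GPT2*. The G-box was found only upstream of *ASN1* among the 9 (10.0% of all promoters) and ACTCAT only upstream of *DRM1* (24.2%). *BXL1* had none of the 4 motifs in its window. One TTATCC match of *DIN10* and one of *AKINBETA1* lay inside a longer transcript model of the same gene. A match is a string of letters, and binding was not measured.

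Total counts were between 15975840 and 21713130 per library, and 3 counts equal 0.139 to 0.182 CPM (the usual unit for counts scaled to library size, here with TMM factors). *RVE8* itself (AT3G09600), counted over the mutant and the fusion transcript, was at 5.19 to 6.31 CPM in *RVE8:GR* + DEX and 8.35 to 9.76 CPM in *RVE8:GR* + mock seedlings, against 0.601 to 1.33 CPM in *rve8* + DEX and 0.606 to 2.06 CPM in *rve8* + mock seedlings. *PRR5*, a clock gene known to be activated by RVE8, was at 99.9 to 108 CPM in *RVE8:GR* + DEX and 38.3 to 53.7 CPM in *RVE8:GR* + mock seedlings. *PRR5* was at 32.5 to 37.0 CPM in *rve8* + DEX and 29.4 to 31.5 CPM in *rve8* + mock seedlings. Every *RVE8:GR* + mock library was thus above every *rve8* library for *PRR5*, also without DEX. The reference gene *PP2A* was between 66.1 and 75.9 CPM in all 12 libraries. The labelled tissue was checked with markers fixed by name. The summed level of 4 green tissue markers was 20139 to 28310 CPM, that of 6 root markers 53.9 to 112 CPM, and the 2 flower markers together did not exceed 0.424 CPM. The 3 seed markers, for storage proteins and an oil body protein, varied most between libraries. Their sum was 19.7 to 36.7 CPM in *RVE8:GR* + DEX, 36.9 to 122 CPM in *RVE8:GR* + mock, 9.96 to 171 CPM in *rve8* + DEX and 6.12 to 49.3 CPM in *rve8* + mock seedlings, with the highest sums in *rve8* + DEX replicate 2 and *RVE8:GR* + mock replicate 3, and the seed markers tested were called in no comparison. Levels in whole seedlings cannot tell fewer expressing cells from less RNA per cell.

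*DIN1* (AT4G35770, chr4:16944878-16946241, 5 exons), a senescence-associated gene for a protein of the rhodanese type, had the largest log2 difference of the 9 between DEX and mock treatment of *RVE8:GR* seedlings. It was at 29.4, 35.2 and 33.1 CPM in *RVE8:GR* + DEX libraries, against 9.12, 3.32 and 4.35 CPM in *RVE8:GR* + mock libraries. In the line without the fusion transgene it was at 7.10, 5.15 and 7.76 CPM in *rve8* + DEX libraries, against 2.59, 2.00 and 3.91 CPM in *rve8* + mock libraries. Every *RVE8:GR* + DEX library was above the other 9, and the highest of those 9 was replicate 1 of *RVE8:GR* + mock. The fitted log2 difference was 2.53 (SE 0.316) for DEX against mock in *RVE8:GR*, which is 5.76-fold, and 2.28 (SE 0.311) for *RVE8:GR* + DEX against *rve8* + DEX.

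*ASN1* (AT3G47340, chr3:17437840-17441431, 10 exons) encodes a glutamine-dependent asparagine synthetase, which stores nitrogen as asparagine when carbon is short. It was at 20.5, 34.8 and 24.9 CPM in *RVE8:GR* + DEX libraries, against 8.78, 3.52 and 4.52 CPM in *RVE8:GR* + mock libraries. It was at 9.41, 8.39 and 11.7 CPM in *rve8* + DEX libraries, against 4.00, 3.39 and 2.55 CPM in *rve8* + mock libraries. DEX libraries of *RVE8:GR* were again above all others, and the *rve8* + DEX and *RVE8:GR* + mock groups overlapped. The log2 difference was 2.24 (SE 0.322) for DEX against mock in *RVE8:GR*, and 1.44 (SE 0.303) between the lines after DEX.

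*DIN10* (AT5G20250, chr5:6833659-6836782, 5 exons) belongs to the raffinose synthase family and was the gene with the highest CPM of the 9. It was at 784, 619 and 749.6 CPM in *RVE8:GR* + DEX libraries, against 296, 271 and 356 CPM in *RVE8:GR* + mock libraries. It was at 456, 452 and 405 CPM in *rve8* + DEX libraries, against 314, 269 and 303 CPM in *rve8* + mock libraries. Here *rve8* + DEX stood clear of both mock groups, which overlapped each other. The log2 difference was 1.22 (SE 0.105) for DEX against mock in *RVE8:GR* and 0.71 (SE 0.104) between the lines after DEX.

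The dormancy-associated genes *DRM1* (AT1G28330, chr1:9933786-9935440, 3 exons) and *DRM2* (AT2G33830, chr2:14309484-14310608, 3 exons) encode small related proteins known from dormant buds and as repressed by auxin. *DRM1* was at 106, 92.1 and 94.6 CPM in *RVE8:GR* + DEX libraries, against 29.8, 29.3 and 43.5 CPM in *RVE8:GR* + mock libraries, and at 63.9, 60.5 and 55.6 CPM in *rve8* + DEX libraries, against 29.2, 26.7 and 39.1 CPM in *rve8* + mock libraries. *DRM2* was at 294, 271 and 291 CPM in *RVE8:GR* + DEX libraries, against 82.0, 59.3 and 85.5 CPM in *RVE8:GR* + mock libraries, and at 108, 95.8 and 106 CPM in *rve8* + DEX libraries, against 55.1, 51.7 and 68.0 CPM in *rve8* + mock libraries. Both genes had their groups in the same order, with the 2 mock groups overlapping. They differed in the gap between the lines after DEX, where the log2 difference was 0.70 (SE 0.162) for *DRM1* and 1.47 (SE 0.128) for *DRM2*. For DEX against mock in *RVE8:GR* it was 1.51 (SE 0.168) for *DRM1* and 1.92 (SE 0.130) for *DRM2*.

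*BXL1* (AT5G49360, chr5:20011812-20016857, 6 exons) encodes a beta-xylosidase that trims sugars from cell wall polymers. It was at 332, 270.1 and 328 CPM in *RVE8:GR* + DEX libraries, against 152, 123 and 180 CPM in *RVE8:GR* + mock libraries, and at 204, 192 and 194 CPM in *rve8* + DEX libraries, against 119, 126 and 183 CPM in *rve8* + mock libraries. The log2 difference for DEX against mock in *RVE8:GR* was 1.03 (SE 0.184), just short of the threshold. *AKINBETA1* (AT5G21170, chr5:7205667-7208496, 5 exons) encodes a regulatory beta subunit of SnRK1, and its groups were the closest together. It was at 39.5, 36.2 and 42.1 CPM in *RVE8:GR* + DEX libraries, against 25.3, 21.1 and 27.9 CPM in *RVE8:GR* + mock libraries, and at 32.1, 30.9 and 34.6 CPM in *rve8* + DEX libraries, against 24.5, 25.9 and 30.1 CPM in *rve8* + mock libraries. The log2 difference was 0.66 (SE 0.0978) for DEX against mock in *RVE8:GR*, and 0.27 (SE 0.0961) between the lines after DEX.

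*KMD4* (AT3G59940, chr3:22142900-22144439, 1 exon) encodes an F-box protein with Kelch repeats of a family that marks cytokinin response regulators for breakdown. It was at 119, 96.4 and 120.3 CPM in *RVE8:GR* + DEX libraries, against 72.6, 61.2 and 74.9 CPM in *RVE8:GR* + mock libraries, and at 84.6, 79.7 and 75.2 CPM in *rve8* + DEX libraries, against 53.0, 53.2 and 55.0 CPM in *rve8* + mock libraries. It was the only one of the 9 in which no 2 groups overlapped. The log2 difference was 0.68 (SE 0.0844) for DEX against mock in *RVE8:GR*, and 0.49 (SE 0.0839) between the lines after DEX.

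*GPT2* (AT1G61800, chr1:22824414-22826902, 5 exons), a carrier of glucose 6-phosphate into plastids, had a pattern of its own. It was at 39.9, 38.5 and 28.5 CPM in *RVE8:GR* + DEX libraries, against 88.8, 87.2 and 76.5 CPM in *RVE8:GR* + mock libraries. It was at 25.8, 30.1 and 28.0 CPM in *rve8* + DEX libraries, against 32.6, 34.5 and 29.3 CPM in *rve8* + mock libraries. The *RVE8:GR* + mock libraries were above the other 9, and the other 3 groups overlapped. The log2 difference was -1.24 (SE 0.105) for DEX against mock in *RVE8:GR*.

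**Figure D1:**
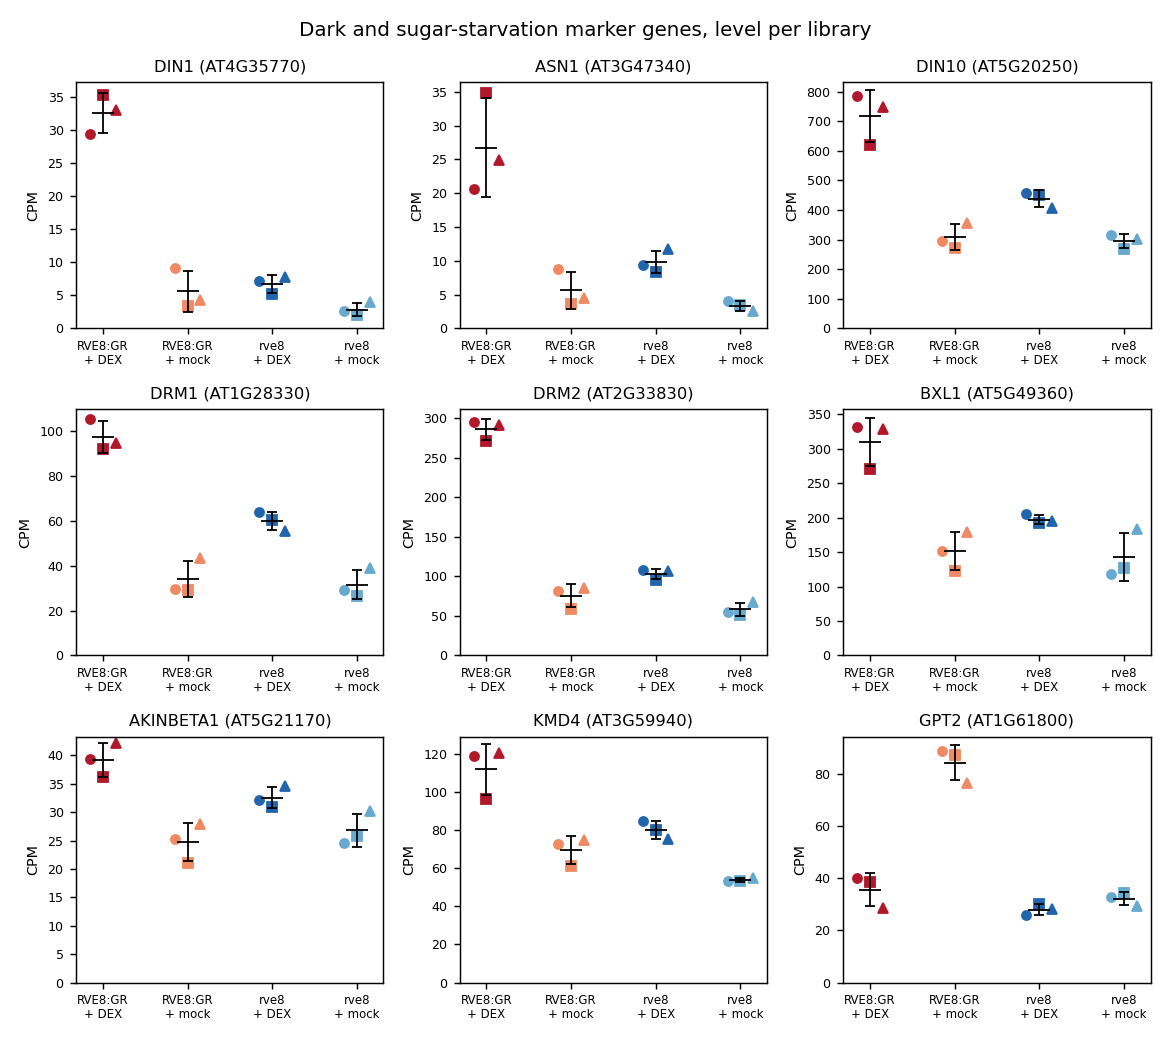
Level of each of the 9 genes in CPM (linear axis from 0) in the 3 libraries of each group, with circles, squares and triangles for replicates 1, 2 and 3, and the black bars giving the mean and SD. *RVE8:GR* + DEX is highest in 8 panels, while in the *GPT2* panel the *RVE8:GR* + mock libraries lie between 76.5 and 88.8 CPM, above all others.

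Set per length of the counted transcript, *DRM2* was the most abundant of the 9 in *RVE8:GR* + DEX seedlings, with a mean of 306 CPM per kb, followed by *DIN10* with 261 CPM per kb. *ASN1*, with 11.0 CPM per kb, was the least abundant there, and had 1.36 CPM per kb in *rve8* + mock seedlings. The 2 genes with the largest log2 differences between DEX and mock in *RVE8:GR* seedlings, *DIN1* and *ASN1*, were also the 2 with the lowest levels per length in mock seedlings of both lines. No stretch of 50 bases in any of the 9 transcripts was shared with another gene's transcript. Genes on the other strand overlap *ASN1*, *DIN10* and *KMD4*, and the authors counted reads of 1 strand.

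In 7 of the 9 genes the group means had the same order, *RVE8:GR* + DEX above *rve8* + DEX above *RVE8:GR* + mock above *rve8* + mock. In *AKINBETA1* the 2 mock groups changed places, and in *GPT2* the order was *RVE8:GR* + mock, *RVE8:GR* + DEX, *rve8* + mock and *rve8* + DEX. In *DIN1* and *ASN1* *rve8* + DEX did not separate from *RVE8:GR* + mock, and in 7 genes the 2 mock groups overlapped.

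Between DEX and mock treatment of *RVE8:GR* seedlings, 7 of the 9 genes passed the threshold as higher, where 2.07% of the 19961 models tested did, and *GPT2* passed it as lower, where 1.36% did. The test was edgeR's quasi-likelihood test, at an adjusted p under 0.01 over all models. *ASN1* no longer passed without *RVE8:GR* + DEX replicate 3 (log2 difference 2.29) or without *RVE8:GR* + mock replicate 3 (2.11), and *BXL1* passed without *RVE8:GR* + mock replicate 3 (1.17), *rve8* + mock replicate 1 (1.03) or *rve8* + mock replicate 3 (1.03). The 3 libraries of each group did not overlap in 8 genes as higher, against 12.5% of models, and in *GPT2* as lower, against 11.5%. The median log2 difference of the 9 was 1.22, and that of all models was -0.002. Between the lines after DEX, a comparison that shares the *RVE8:GR* + DEX libraries with the first, *DIN1*, *DIN10*, *DRM2* and *KMD4* passed as higher (1.89% of models). The members' median log2 difference there was 0.70, and 8 genes did not overlap (13.9% of models). Without *rve8* + DEX replicate 2 the call of *DIN1* was lost, at a log2 difference of 2.13, and without *RVE8:GR* + DEX replicate 3 *GPT2* passed as higher, at 0.49. *ASN1* passed without replicate 1 (1.44) or replicate 2 (1.44) of *RVE8:GR* + mock, and *DRM1* without replicate 3 of *RVE8:GR* + mock (0.70) or of *rve8* + mock (0.70), libraries that enter this comparison only through the pooled spread. Nothing is read from these counts, since the genes were chosen with these comparisons in view.

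The response of *rve8* seedlings to DEX gives the effect of the treatment in a line without the fusion transgene. *KMD4*, *DRM2*, *DIN10* and *DRM1* were higher in *rve8* + DEX than in *rve8* + mock seedlings. The log2 difference was 0.57 for *KMD4* (SE 0.0865, adjusted p = 0.000243), 0.83 for *DRM2* (SE 0.132, adjusted p = 0.00183), 0.57 for *DIN10* (SE 0.105, adjusted p = 0.00272) and 0.92 for *DRM1* (SE 0.172, adjusted p = 0.00735), by edgeR's quasi-likelihood test. Thus 4 of the 9 were called higher, where 3.96% of all models were. The genes were chosen with earlier results of these data known, so nothing is read from this share. Over all models there were 790 higher and 313 lower calls, against 520 and 803 with library totals without TMM factors, under which the same 4 genes were called. *ASN1* and *DIN1* had larger log2 differences, 1.57 (SE 0.378, adjusted p = 0.0262) and 1.24 (SE 0.401, adjusted p = 0.0800), with larger errors, and did not pass. *BXL1* (0.47), *AKINBETA1* (0.28) and *GPT2* (-0.20) did not pass either. In 8 of the 9 genes, *GPT2* being the exception, every *rve8* + DEX library was above every *rve8* + mock library, which held for 15.7% of models.

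Several of these calls turned on single libraries. Without *RVE8:GR* + mock replicate 1, a library of neither group that enters through the pooled spread, *DIN1* and *ASN1* passed, with adjusted p = 0.000977 and 0.00118 by the same edgeR test at log2 differences of 1.23 and 1.57. *DIN10* lost its call without replicate 1 or 2 of *rve8* + DEX or any 1 of the 3 *rve8* + mock libraries (log2 difference 0.50 to 0.61). *DRM1* passed in 4 of the 12 fits that left out 1 library (0.81 to 1.10 over the 12), and *DRM2* in 11, the exception being *rve8* + mock replicate 1 (0.79), while *KMD4* passed in all 12. The call of *DRM1* was lost without any 1 of the 3 libraries of *RVE8:GR* + DEX, of *rve8* + DEX, or replicate 1 or 2 of *rve8* + mock. Of the 4 green tissue markers, 2 were also called higher in *rve8* + DEX seedlings (*LHCA1* 0.38 and *PSAD2* 0.32 on the log2 scale). Of the 6 root markers, 2 were called lower (*NRT2.1* -1.72 and *PIP2;4* -0.63), as 1.57% of models were. The root marker *TIP2;3* went the other way without a call. It was at 12.8, 10.9 and 15.3 CPM in *rve8* + DEX libraries, against 7.47, 10.8 and 8.84 CPM in *rve8* + mock libraries. The summed root markers were 53.9 to 77.5 CPM in *rve8* + DEX and 96.8 to 112 CPM in *rve8* + mock seedlings. The summed green markers were 24257 to 28310 CPM in *rve8* + DEX and 20139 to 24401 CPM in *rve8* + mock seedlings. Their part in the result was not tested.

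Between the lines without DEX, *GPT2* was the only one of the 9 that passed, and it was higher in the *RVE8:GR* line. Its log2 difference was 1.39 (SE 0.107, adjusted p = 1.12e-06 by edgeR's quasi-likelihood test), which is 2.62-fold, where 1.31% of all models passed as higher. It passed in all 12 fits that left out 1 library. The *RVE8:GR* + mock libraries also enter the DEX comparison that was known when the genes were chosen, so these values are a description. *KMD4* was next, with libraries that did not overlap (11.5% of models) and a log2 difference of 0.37 (SE 0.0868, adjusted p = 0.0157), and it passed without *RVE8:GR* + DEX replicate 2 (0.37) or *RVE8:GR* + mock replicate 2 (0.45). *DRM2* (0.38, adjusted p = 0.134) passed only without *RVE8:GR* + mock replicate 2 (0.52). The remaining 6 had log2 differences from -0.12 for *AKINBETA1* to 0.99 for *DIN1*, with overlapping libraries. *PSAD2* was the only green tissue marker that passed here (0.38), and no root marker did. Their part in the result was not tested.

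The difference between the 2 DEX responses was fitted as an interaction. It contains the DEX response of *RVE8:GR*, which was known when the genes were chosen, so it is a description. *DRM2* responded more in *RVE8:GR* than in *rve8* seedlings, by 1.09 on the log2 scale (SE 0.183), and passed the threshold, as 0.240% of models did in this direction. *GPT2* had an interaction of -1.04 (SE 0.153) and passed it as lower, as 0.947% of models did. *GPT2* passed in all 12 fits without 1 library and *DRM2* in 4 (log2 0.95 to 1.19). *DRM2* lost its call without any 1 of the 3 libraries of *RVE8:GR* + DEX, of *rve8* + DEX, or *RVE8:GR* + mock replicate 1 or *rve8* + mock replicate 1. The other 7 had interactions of 0.12 for *KMD4* to 1.29 (SE 0.525) for *DIN1* and did not pass. Without *RVE8:GR* + mock replicate 1 the interaction of *DIN1* was 1.85 and passed, and *DIN10* (0.65) passed without *RVE8:GR* + DEX replicate 2 (0.75) or *RVE8:GR* + mock replicate 3 (0.77).

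**Figure D2:**
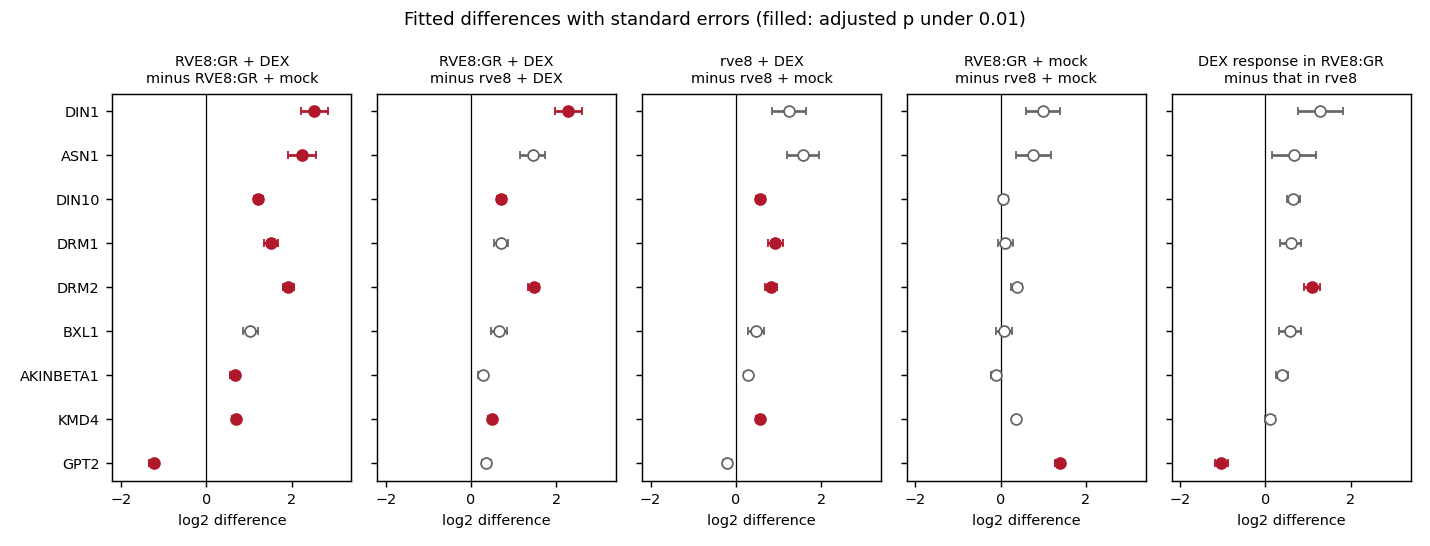
Fitted log2 differences of the 9 genes (points) with their standard errors (bars) in the 5 comparisons, filled where the adjusted p was under 0.01. In the first panel 8 points are filled, *GPT2* at -1.24 on the left of 0 and *DIN1* at 2.53 farthest to the right, while in the fourth panel only *GPT2* is filled, at 1.39.

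Libraries of one group did not differ alike in all 9 genes. *RVE8:GR* + mock replicate 1 lay 0.84 above its group mean in *DIN1* and 0.75 in *ASN1* on the log2 scale, with a median deviation of 0.07 over the 9 genes. Replicate 2 of that group was lowest for 8 of the 9 genes, with a median deviation of -0.22, and replicate 3 was highest for 6. Replicate 3 of *rve8* + mock was also highest in its group for 6 of the 9. Replicate 2 of *RVE8:GR* + DEX was lowest for 6 genes and highest for *DIN1* and *ASN1*.

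**Figure D3:**
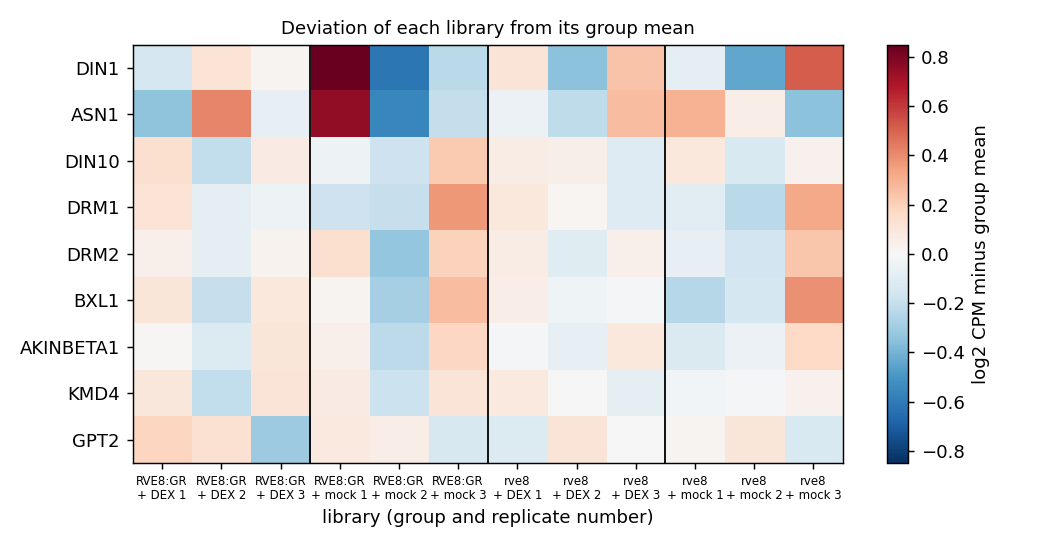
Log2 CPM of each gene in each of the 12 libraries minus the mean of its group, from blue (below the mean) to red (above). The darkest cells are *DIN1* and *ASN1* in *RVE8:GR* + mock replicate 1, at 0.84 and 0.75.

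The genes most like *DIN1* and *ASN1* over the 12 libraries were found by the mean absolute difference of log2 CPM after each gene was centred on its own mean, among 15587 models with a mean of at least 5 CPM. For *DIN1* they were AT5G23240, annotated as a protein with a DNAJ domain (0.34), AT2G15880 (0.51), *COR27*, a cold-regulated gene (0.51), AT3G62550 (0.59) and *FKF1*, a blue light receptor of the flowering pathway (0.62). The first of them, AT5G23240, had a mean of 42.5 CPM in *RVE8:GR* + DEX seedlings, against 7.56 CPM in *RVE8:GR* + mock, 11.2 CPM in *rve8* + DEX and 3.37 CPM in *rve8* + mock seedlings. For *ASN1* they were AT5G23240 (0.39), AT4G11170 (0.42), AT2G15880 (0.44), AT3G15450 (*SEN5*, 0.49) and *COR27* (0.51). Within the 9, the nearest to *DIN1* was *ASN1* (0.40) and the nearest to *ASN1* was *DRM2* (0.38), and *GPT2* was the farthest from both (1.36 and 1.34).

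Other genes of the starvation response were listed by name from general knowledge, with earlier results of these data known. The counts of this list and of the lists that follow are therefore a description. Of 18 starvation and SnRK1 response genes, 12 were called higher (2.07% of models) and none lower in *RVE8:GR* + DEX against *RVE8:GR* + mock, with a median log2 difference of 0.48, and without *RVE8:GR* + mock replicate 2 the count was 7. They were led by *BCAT2* (1.97), for breakdown of branched-chain amino acids, *SEN5* (1.52), *RZPF34* (1.13), for a zinc finger protein, and the hexose carrier *STP1* (1.00). *BCAT2* was low, at 2.41 to 3.44 CPM in *RVE8:GR* + DEX and 0.395 to 1.32 CPM in *RVE8:GR* + mock seedlings. Against *rve8* + DEX, 6 were called higher (1.89% of models), led by *BCAT2* (1.55) and *SEN5* (1.01), and the count was 3 without *RVE8:GR* + DEX replicate 3 or without replicate 1 or 2 of *rve8* + DEX. In *rve8* + DEX against *rve8* + mock, 3 were called higher (3.96% of models), *STP1* (0.73), *SEN5* (0.72) and the glutamate dehydrogenase gene *GDH1* (0.41), and the median was 0.30, with 5 called when *RVE8:GR* + mock replicate 3 was left out. Between the lines without DEX only *PPDK*, for pyruvate phosphate dikinase, was called (0.55, higher in *RVE8:GR* + mock, as 1.31% of models were), and none was called without replicate 1 of either mock group. No gene of the list had a called interaction, the largest being 1.85 for *BCAT2* (adjusted p = 0.0953, edgeR), and leaving out 1 library gave 0 to 2.

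Of 13 genes for SnRK1 subunits and bZIP factors of groups C and S1, 3 were called higher (2.07% of models) in *RVE8:GR* + DEX against *RVE8:GR* + mock, and all 3 were bZIP factors: *bZIP63* (0.87), *bZIP1* (0.69) and *bZIP11* (0.42). *KIN10*, the main catalytic subunit of SnRK1, had a log2 difference of 0.00 (SE 0.0758) there. *bZIP11* was also called against *rve8* + DEX (0.68, where 1.89% of models were higher) and as an interaction (0.52, where 0.240% were). The list had a called interaction in 4 of 12 fits without 1 library. No gene of this list was called in *rve8* + DEX against *rve8* + mock or between the lines without DEX, except that 1 was called in the first of these without replicate 1 or 3 of *rve8* + mock. Among 10 measured genes of dark senescence and autophagy, only *ATG8E*, for an autophagosome protein, was called in the first comparison (0.68, where 2.07% of models were higher). *NYC1*, for chlorophyll b breakdown, was called in *rve8* + DEX against *rve8* + mock (0.31, where 3.96% of models were higher). *PIF4*, a light signalling factor, was called between the lines without DEX (0.49, where 1.31% were higher). Leaving out 1 library gave 1 to 2, 0 to 1 and 0 to 2 calls in these 3 comparisons. Of 5 further DIN genes, *DIN4* was called higher in *RVE8:GR* + DEX against *RVE8:GR* + mock (0.74, where 2.07% of models were higher). None was called in the other comparisons, except 1 against *rve8* + DEX without replicate 1 or 2 of *rve8* + mock and 1 interaction without *rve8* + mock replicate 2. With DEX in *RVE8:GR* seedlings, *DIN2* (0.89), *DIN9* (0.31) and *DIN3* (0.20) were higher without a call, and *DIN11* (-0.60) was lower. *DIN11* was also lower, without a call, in *rve8* + DEX libraries (3.99 to 5.61 CPM) than in *rve8* + mock libraries (6.29 to 13.1 CPM).

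Relatives of the 9 genes were also listed. Of 14 tested paralogues, 4 were called higher (2.07% of models) in *RVE8:GR* + DEX against *RVE8:GR* + mock: *KMD3* (1.17), *KMD1* (0.86), *BXL2* (0.61) and *SIP2* (0.45), a relative of *DIN10*. *SIP2* was also the one called against *rve8* + DEX (0.37, where 1.89% of models were higher), and 2 were called there in 6 of the 12 fits without 1 library. *KMD3* and *KMD1* were called higher in *rve8* + DEX against *rve8* + mock as well (1.13 and 0.82), where 3.96% of models were. Their interactions were 0.03 (SE 0.215) and 0.04 (SE 0.143), beside 0.12 (SE 0.121) for *KMD4*. *ASN2* was called lower in *rve8* + DEX seedlings (-0.45), as 1.57% of models were. *GPT1*, the relative of *GPT2*, had a called interaction of 0.55 (SE 0.118), opposite in sign to that of *GPT2*, where 0.240% of models were called higher. The list had a called interaction in 1 of the 12 fits without 1 library.

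Genes known to be induced by sugar were set beside *GPT2*. Of 8 such genes, 3 were called higher in *RVE8:GR* + mock seedlings against *rve8* + mock seedlings, where 1.31% of models were. With DEX in the *RVE8:GR* line 2 were called lower, where 1.36% of models were (4 were called without *RVE8:GR* + DEX replicate 2). *APL3*, for a subunit of the starch enzyme ADP-glucose pyrophosphorylase, was at 18.8, 20.6 and 18.9 CPM in *RVE8:GR* + DEX, against 40.8, 37.6 and 31.1 CPM in *RVE8:GR* + mock libraries, and at 13.3, 16.4 and 16.9 CPM in *rve8* + DEX, against 16.8, 17.6 and 17.3 CPM in *rve8* + mock libraries. *MYB75*, a regulator of anthocyanin synthesis, was at 2.85, 3.66 and 3.73 CPM in *RVE8:GR* + DEX, against 11.8, 10.6 and 5.49 CPM in *RVE8:GR* + mock libraries, and at 2.26 to 2.70 CPM in *rve8* + DEX, against 2.48 to 3.32 CPM in *rve8* + mock libraries. *BAM5*, a beta-amylase gene, was at 6.13, 15.3 and 6.08 CPM in *RVE8:GR* + DEX, against 48.1, 26.8 and 32.8 CPM in *RVE8:GR* + mock libraries, and at 0.385 to 1.05 CPM in *rve8* + DEX, against 3.14 to 4.59 CPM in *rve8* + mock libraries. All 3, like *GPT2*, had their 3 *RVE8:GR* + mock libraries above the 9 others.

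The log2 difference of *RVE8:GR* + mock against *rve8* + mock was 3.21 for *BAM5* (SE 0.425, adjusted p = 0.0044), 1.63 for *MYB75* (SE 0.234, adjusted p = 0.0003) and 1.08 for *APL3* (SE 0.104, adjusted p = 2e-06) by edgeR's quasi-likelihood test. For *RVE8:GR* + DEX against *RVE8:GR* + mock it was -1.96 for *BAM5*, which did not pass, -1.45 for *MYB75* and -0.91 for *APL3*. *BAM5* was also lower with DEX in *rve8* seedlings, at a log2 difference of -2.39 that did not pass, beside -0.20 for *GPT2*. The interaction of *APL3* was called (-0.76, where 0.947% of models were lower), while those of *MYB75* (-1.21) and *BAM5* (0.43) were not. The list had no called interaction in 8 of the 12 fits without 1 library. The other 5 genes of the list (*APL4*, *CHS*, *NIA1*, *NIA2* and *SUS1*) were called in none of the 5 comparisons with all libraries. *BAM5* was also called against *rve8* + DEX (3.63, higher in *RVE8:GR*, as 1.89% of models were). In that comparison 7 of the 12 fits without 1 library called no gene of the list.

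**Figure D4:**
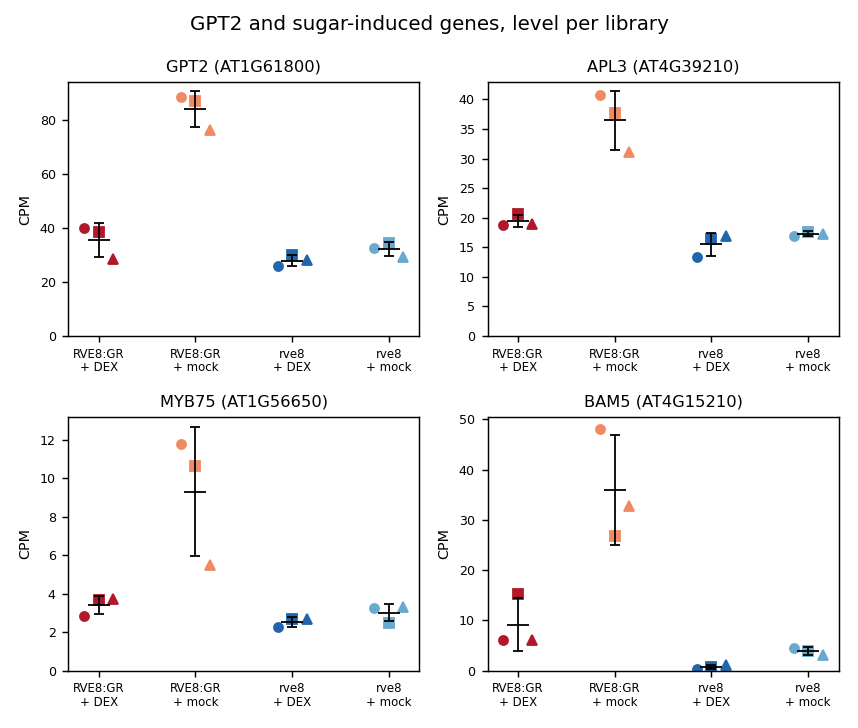
Level of *GPT2* and of 3 sugar-induced genes in CPM (linear axis from 0) in the 3 libraries of each group, with circles, squares and triangles for replicates 1, 2 and 3, and black bars for the mean and SD. In all 4 panels the *RVE8:GR* + mock libraries are the highest, for *APL3* at 31.1 to 40.8 CPM, and in the *BAM5* panel the *RVE8:GR* + DEX libraries are also above all *rve8* libraries.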

How the data were processed

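RNA-seq libraries of *RVE8:GR* and *rve8* seedlings treated with DEX or mock solution (3 each) were grouped by the sample labels. The authors deposited raw counts per gene model. To make them, the authors filtered reads by quality (FASTX-toolkit), removed adapters, split the libraries by barcode, mapped them (BWA) onto TAIR10 representative transcripts, merged lanes with Samtools and counted reads on the reverse strand. The treatment of reads that map to several models is not given in the sources used here. Empty entries (33457) were read as 0, since the smallest count written is 1.

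Models reaching 1 CPM in 3 or more libraries (19961) were tested with edgeR 4.0.16 in R 4.3.3 (TMM factors, robust quasi-likelihood test, 4 groups fitted together, no covariates). Genes were called at a Benjamini-Hochberg adjusted p under 0.01. Of 200 genes changed in data simulated for *RVE8:GR* + DEX against *RVE8:GR* + mock on 19961 models, 173 were called, with 1 unchanged gene. These counts are pooled over all models and over changes of different size. The simulation gave every gene the same dispersion and changed only models with a mean of at least 5 CPM. Spreads that differ between genes were therefore not simulated. In *RVE8:GR* + mock libraries, *DIN1* had a mean of 5.60 CPM (SD 3.10) and *ASN1* of 5.61 CPM (SD 2.79). Recovery at such a spread was not tested separately. The replicates are described as separate pools of seedlings. DESeq2 1.42.0 was an alternative. The members and the gene lists were chosen with earlier results of these data known. Named were the 9 members, *RVE8*, *PRR5*, *PP2A*, up to 4 genes of each list among those called in a comparison, by absolute log2 difference, and the 5 models most like *DIN1* and *ASN1*. Tissue markers were named beside these. *KIN10*, as a gene with no call, and the uncalled DIN genes, relatives, interactions and sugar-induced genes were named after their values were seen. Promoters and coordinates are from TAIR10.1, joined by model name (24858 of 26245), with Python 3.11.15. *SAG12*, 1 of the 11 dark senescence and autophagy genes listed, was not among the 26245 models counted and so has no values here. The alternatives changed the scaling factors, test, filter, threshold, replicate block and libraries used.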

Additional observations from a re-analysis of the deposited data

Results flagged for a closer look

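The DEX responses of the 2 lines differed, by the interaction in edgeR's quasi-likelihood test, for 2 of the 9 genes. *DRM2* had an interaction of 1.09 on the log2 scale (adjusted p = 0.00745), the response being 1.92 in *RVE8:GR* and 0.83 in *rve8* seedlings. *GPT2* had an interaction of -1.04 (adjusted p = 0.000976), the response being -1.24 in *RVE8:GR* and -0.20 in *rve8* seedlings. Both genes were chosen with the first of these responses known. *DRM2* passed in 4 of 12 fits without 1 library and *GPT2* in 12 of 12.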

How the results depend on the processing

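Over 21 alternatives (19 for the interaction), 839 of 927 log2 differences of the 9 genes kept their direction and their side of the threshold, 30 lost the call, 52 gained one and 6 turned in sign, all 6 uncalled differences of *RVE8:GR* + mock against *rve8* + mock. These were *DIN10*, *DRM1* and *BXL1* without *RVE8:GR* + mock replicate 3, *BXL1* without *rve8* + mock replicate 1, and *DIN10* and *DRM1* without *rve8* + mock replicate 2. With 1 library left out, their log2 difference was -0.060 to 0.14 for *DIN10*, -0.098 to 0.28 for *DRM1* and -0.053 to 0.30 for *BXL1*. The count of the 9 genes called was 8 for *RVE8:GR* + DEX against *RVE8:GR* + mock, 4 against *rve8* + DEX, 4 for the DEX response of *rve8*, 1 between the lines without DEX and 2 for the interaction. With 1 library left out it was 7 to 9, 3 to 5, 1 to 6, 1 to 3 and 1 to 3 in that order. With edgeR's exact test it was 8 against *rve8* + DEX, 7 for the DEX response of *rve8* and 5 between the lines without DEX. Between the lines without DEX it was 2 with DESeq2, 2 without a filter on low counts and 2 at an adjusted p under 0.05, and the interaction count without a filter was 1. When only the groups compared were fitted, *DIN1* (adjusted p = 0.0238) and *ASN1* (adjusted p = 0.0537) lost their calls for DEX in *RVE8:GR* and gained them for DEX in *rve8* seedlings. Over all models, the DEX response of *rve8* had 790 higher and 313 lower calls with TMM, 644 and 436 with upper-quartile factors, and 520 and 803 with library totals, which moved the median of all models to -0.09. Between the lines without DEX there were 261 higher and 83 lower calls with TMM, 222 and 128 with upper-quartile factors and 216 and 148 with library totals. The interaction had 48 and 189 calls with TMM and 68 and 126 with library totals. Of the 9 genes, only *BXL1* changed its call under these 2 scalings (gained for DEX in *RVE8:GR*). The causes were not tested. The lowest count of a member in any library was 33, and the part of depth was not tested.

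Correlations between the deviations of same-numbered libraries were -0.044 to 0.170 and not all above 0.1, so the numbers were not taken as pairs. With the replicate block, 3 of the 9 genes were called between the lines without DEX (*DRM2* and *KMD4* gained), *ASN1* was lost (adjusted p = 0.0122) and *BXL1* gained for DEX in *RVE8:GR*, *BXL1* was gained against *rve8* + DEX, and *DIN10* was gained for the interaction. Of 6 libraries in a comparison, 3 were closest to their own number for DEX against mock in *RVE8:GR* and 2 for DEX against mock in *rve8*. Between the lines it was 4 without DEX and 6 after DEX. In that last comparison the numbers did match, with correlations of 0.024, 0.084 and 0.125. Over all models the block gave more calls in each comparison, such as 480 higher and 311 lower for DEX in *RVE8:GR*, against 414 and 271. Pairing by number was not tested further.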
